A study of Mus musculus with 3 samples.

Results

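The enzymes that write and erase acetyl and methyl groups on histones were examined in young and aging mouse blastocysts. The members were the genes whose symbol begins with Kat, Hdac, Kmt or Kdm followed by a number, together with Crebbp, Ep300, Ehmt1, Ehmt2, Setdb1, Suv39h1, Suv39h2, Dot1l and the Polycomb genes Ezh1, Ezh2, Eed and Suz12. Probes were named through the RefSeq mRNA accession that the array files give for each spot. This gave 56 members with 107 probes, among 20027 genes with 29679 probes named in the same way. Of the members, 24 had 1 probe and 32 had more, with at most 6. Kmt2a, the founding gene of the mixed lineage leukemia family, had no probe with such an accession, nor had 5 pseudogenes with matching symbols. Kat14 belongs to the list by its symbol, and its protein is a subunit of an acetyltransferase complex.

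Acetylation of histone tails is placed by acetyltransferases and removed by deacetylases, and it marks open and active chromatin. Methylation is placed by enzymes that are specific for one lysine, and its meaning depends on the residue: H3K4 methylation marks promoters and enhancers, H3K9 methylation marks heterochromatin, and H3K27 methylation is the mark of Polycomb repression. In the preimplantation embryo these marks are erased and rebuilt after fertilization, and they differ between the inner cell mass and the trophectoderm of the blastocyst.

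The study deposited 3 arrays, and each held RNA of 1 pool of 30 ICR mouse blastocysts. The young array came from untreated embryos of females of 3 to 6 weeks of age, the aging array from untreated embryos of females of 43 to 53 weeks, and the suppressed aging array from embryos of females of 43 to 53 weeks that were kept in culture with 10 μg/ml of a neutralizing antibody against the chemokine CXCL5 and 10 nM of an antagonist of its receptor CXCR2. All embryos were conceived by superovulation and mating in vivo, collected as zygotes at 18 h after hCG and cultured in KSOM for 96 h. The comparison of aging with young addresses maternal age, and that of suppressed aging with aging addresses the blockade of CXCL5 signaling. With 1 array in each group there was no replicate, no error between embryos is known, and no test was made.

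Levels are log2 intensities after subtraction of the 75th percentile of each array, so a level of 0 is the brightness below which 75% of all probes of that array lay. This percentile was an intensity of 145, 155 and 122 for the young, aging and suppressed aging array. A probe was taken as detected where the scanner software called it well above background, and the dimmest detected probe had a level of -4.20, -4.32 and -3.93 on the respective array. Where a probe was detected on 1 side of a comparison only, the difference is given as a bound. The spread between spots of the same probe on 1 array was small, with a median SD of 0.05 log2 on each of the 3 arrays, which gives an SD of 0.07 for a difference between single spots of the young and the aging array. This covers the printing and reading of spots, not the embryos.

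The lineage markers of the blastocyst were present. All 7 trophectoderm genes, all 7 genes of the inner cell mass and epiblast and all 5 genes of the primitive endoderm were detected on every array. The granulosa genes Fshr, Has2, Ptx3 and Inhba, the oocyte genes Zp1, Mos and Oosp1 and the blood gene Ptprc were detected on none. Other genes of these lists were detected. Foxl2 was bright, with levels of 8.66, 8.54 and 8.77, Cyp19a1 and Amh were detected on each array at lower levels, and so were the oocyte genes Zp3 and Nlrp5 and the blood gene Hba-a1, with Alas2 above background in young and aging only. From young to aging, 6 of the 7 trophectoderm genes were lower, with a median log2 difference of -0.37, and 6 of the 7 genes of the inner cell mass and epiblast were higher, with a median of 1.11. From aging to suppressed aging, all 7 trophectoderm genes were higher with a median of 0.29, and 6 of the 7 genes of the inner cell mass and epiblast were lower with a median of -0.22. The summed log2 level of the trophectoderm genes was between 8.55 and 8.96 on the 3 arrays, and that of the inner cell mass and epiblast genes between 10.03 and 10.30. In the oocyte list 5 of 8 genes could be compared, and the median was 2.08 from young to aging and -1.88 from aging to suppressed aging. The part of these lineage, granulosa, oocyte and blood genes in the differences of the histone enzymes was not tested. In pooled embryos, fewer cells of a type and less RNA per cell cannot be told apart.

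Most of the enzymes were expressed. Of the 56 members, 54 were detected in young, 54 in aging and 53 in suppressed aging blastocysts, and 53 were detected on all 3 arrays. Among all named genes the share was 64.4% on all 3 arrays. Hdac11, the single class IV deacetylase, and Kdm4d, a testis-enriched H3K9 demethylase, were detected on none. Kat2b was detected on the young and aging arrays and not on the suppressed aging array. By probes, 98 of the 107 (91.6%) were detected in young, 95 (88.8%) in aging and 93 (86.9%) in suppressed aging blastocysts. Over all probes of these arrays the shares were 58.4%, 58.7% and 56.4%.

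Between young and aging blastocysts 54 members could be compared, each by its brightest comparable probe. Of these, 34 were higher and 20 lower in aging, and the median log2 difference was 0.16. Over all 14767 genes compared, 52.8% were higher in aging and the median was 0.04. The direction turned at the next brightest probe, which was higher in aging for 10 of 28 members (35.7%) with a median of -0.21, against 48.8% of all genes with such a probe. At their brightest probe 15 of these 28 members were higher. A difference over 2-fold was found for 6 members (11.1%), of which 4 were higher and 2 lower, against 18.8% of all genes (9.91% higher and 8.9% lower). No member differed over 5-fold, against 2.51% of all genes (1.29% higher and 1.21% lower). The 4 members higher in aging were Dot1l by 4.23-fold, Kat2b by 3.00-fold, Ezh1 by 2.38-fold and Kdm2b by 2.00-fold. The 2 members lower in aging were Kat14 by 2.47-fold and Hdac2 by 2.30-fold.

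Between aging and suppressed aging blastocysts 54 members could again be compared, and 25 were higher and 29 lower after suppression, with a median log2 difference of -0.05. Over all 14550 genes, 49.6% were higher and the median was -0.00. In the authors' processed table, whose scaling differs, the split of the members was 19 higher and 35 lower. The next brightest probe was higher after suppression for 21 of 29 members (72.4%) with a median of 0.43, against 53.5% of all genes with such a probe. At their brightest probe 16 of these 29 members were higher, with a median of 0.01. A difference over 2-fold was found for 4 members (7.41%), 1 higher and 3 lower, against 17.2% of all genes (8.77% higher and 8.42% lower). Hdac8 was 5.79-fold higher after suppression and was the single member over 5-fold, against 2.22% of all genes (1.35% higher and 0.873% lower). The lower members were Kat2b by at least 3.05-fold, Dot1l by 2.94-fold and Hdac10 by 2.41-fold. Both comparisons use the same aging array, so a high or low value on that array enters both with opposite sign.

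**Figure D1:**
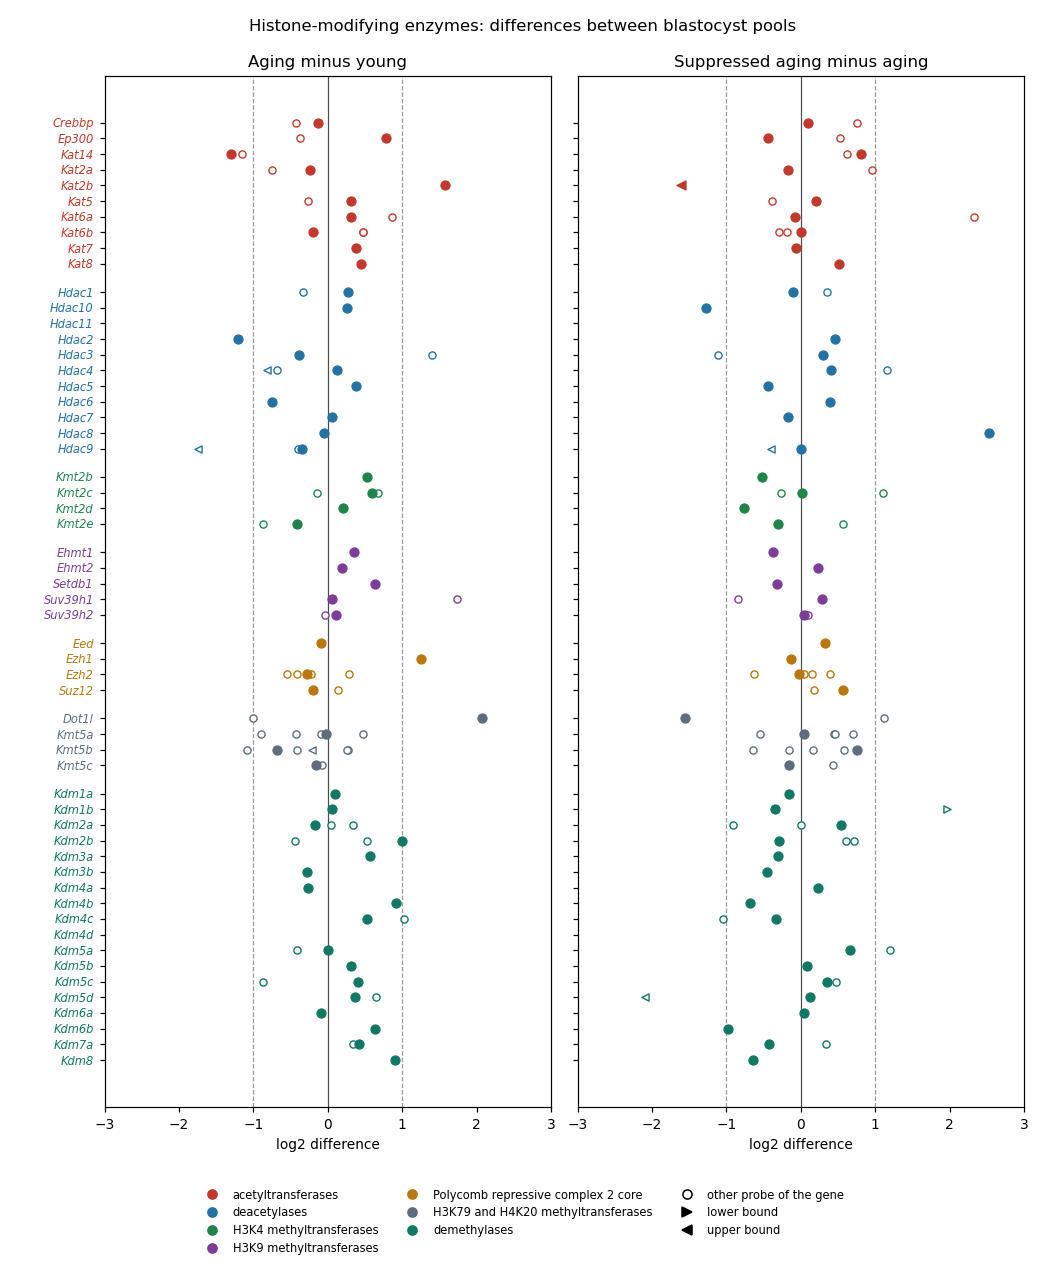
The log2 difference of each member is plotted for aging minus young (left) and suppressed aging minus aging (right), with 1 row for each gene, coloured by class. Filled symbols are the probe used for the gene, open symbols are its other probes, triangles are bounds, and the dashed lines mark 2-fold. Most filled points lie between the dashed lines, with 6 outside on the left and 4 on the right, and the open symbols of a gene often lie on the other side of 0.

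Beginning with the enzymes that add acetyl groups, all 10 acetyltransferases were detected in young and aging blastocysts. In aging, 6 were higher and 4 lower than in young (median 0.31), against 52.8% higher over all genes. For the 7 members of the class with a further comparable probe, this probe was higher in aging for 2, with a median of -0.37, and the brightest probe of the same 7 had a median of -0.13. After suppression 5 of the 10 were higher and 5 lower (median -0.03), against 49.6% higher over all genes. Here the next probe was higher for 5 of the 7, with a median of 0.62. The brightest probe of the same 7 had a median of 0.001. Over all genes with such a probe, the next one was higher for 48.8% in aging and 53.5% after suppression. Kat14, a subunit of the ATAC acetyltransferase complex, had log2 levels of 1.91 in young, 0.61 in aging and 1.41 in suppressed aging blastocysts at its brighter probe. Its other probe gave 0.80, -0.34 and 0.28. Both probes were lowest in aging, with differences from young of -1.31 and -1.15, and both were higher after suppression by 0.80 and 0.62. Kat14 was the only member for which the 2 brightest probes were both over 2-fold apart in the same direction between young and aging. This was 1 of 28 members with 2 comparable probes, against 3.81% of all such genes.

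Kat2b, one of the paired catalytic subunits that SAGA and ATAC can carry, was near the detection limit. Its single probe had a level of -3.91 in young, -2.32 in aging and -3.99 in suppressed aging, where it was not well above background. The aging array thus held the highest value, 1.58 above young, and suppressed aging was at least 1.61 lower than aging. With a different background correction (normexp) the difference from young was 0.36 and that after suppression was -0.28, both under 2-fold. Kat2a, the other such subunit, had levels of 1.18, 0.94 and 0.77 at its brighter probe and 0.89, 0.15 and 1.10 at the other. Aging was lower than young at both Kat2a probes, by 0.24 and 0.75 on the log2 scale, and the probes differed in direction after suppression.

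The coactivators Crebbp and Ep300, which acetylate H3K27 at enhancers, did not pass 2-fold at any probe. Crebbp had levels of 7.29, 7.16 and 7.26 at its brighter probe, and both Crebbp probes were lower in aging, by 0.13 and 0.43 on the log2 scale. The Ep300 probes differed in direction, with 0.79 and -0.37 from young to aging. Kat5 (Tip60), the enzyme of the NuA4 complex, Kat7 (HBO1) and Kat8 (MOF), which acetylates H4K16, were higher in aging at the probe used, by 0.31, 0.39 and 0.45. The other Kat5 probe went the opposite way, at -0.27, and Kat7 and Kat8 had 1 probe each. Kat6a (MOZ) was higher in aging at both of its probes, by 0.31 and 0.87. Its dimmer probe was much higher after suppression, with levels of -2.09 in young, -1.22 in aging and 1.11 in suppressed aging, a difference of 2.33. Its brighter probe gave 0.67, 0.99 and 0.90 on the same arrays, so the higher value after suppression was not seen there.

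Among the deacetylases, 10 of 11 were detected on each array. From young to aging 5 were higher and 5 lower (median 0.01), against 52.8% higher over all genes. After suppression again 5 were higher and 5 lower (median 0.15), against 49.6% higher. Hdac2, a class I deacetylase of the Sin3, NuRD and CoREST complexes, had levels of 2.17 in young, 0.97 in aging and 1.42 in suppressed aging. It was lowest in aging, 1.20 below young, and suppressed aging was 0.46 above aging. Its single probe leaves this without a check by other sequence of the gene. Hdac1, the partner of Hdac2 in these complexes, had levels of 2.76, 3.03 and 2.92 at its brighter probe, and its probes differed from young to aging by 0.27 and -0.34. The X-linked tubulin deacetylase Hdac6 was also lowest in aging, with levels of 2.78, 2.03 and 2.41, a difference from young of -0.75.

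Hdac8, an X-linked class I deacetylase that acts on the cohesin subunit SMC3, gave the largest difference of any chosen probe in the list. Its levels were -3.20 in young, -3.25 in aging and -0.72 in suppressed aging, so the untreated arrays were alike within 0.05 and the treated array was 2.53 higher. With the normexp correction this difference was 1.03, over 2-fold and under 5-fold. The second Hdac8 probe was not well above background on any array. Hdac10, a class IIb enzyme that deacetylates polyamines, had levels of -2.45, -2.18 and -3.46, lowest after suppression by 1.27, and -0.22 with the normexp correction. Its other probe was not detected on any array.

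The remaining deacetylases lay within 2-fold at the probe used. Hdac5 had levels of -0.39, -0.02 and -0.46 and was the highest of the class from young to aging, by 0.37. Hdac7 was nearly level at 6.53, 6.59 and 6.42. For Hdac3, a class I enzyme, the brighter probe had levels of 1.16, 0.78 and 1.07 and the other 0.19, 1.59 and 0.48. These run in opposite directions, with -0.38 and 1.40 from young to aging and 0.30 and -1.11 after suppression. Hdac9 was lower in aging at each of its 3 comparable probes, by 0.34, by 0.40 and, at a probe detected in young only, by at least 1.75 on the log2 scale. Both comparable Hdac4 probes were higher after suppression, by 0.41 and 1.16.

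**Figure D2:**
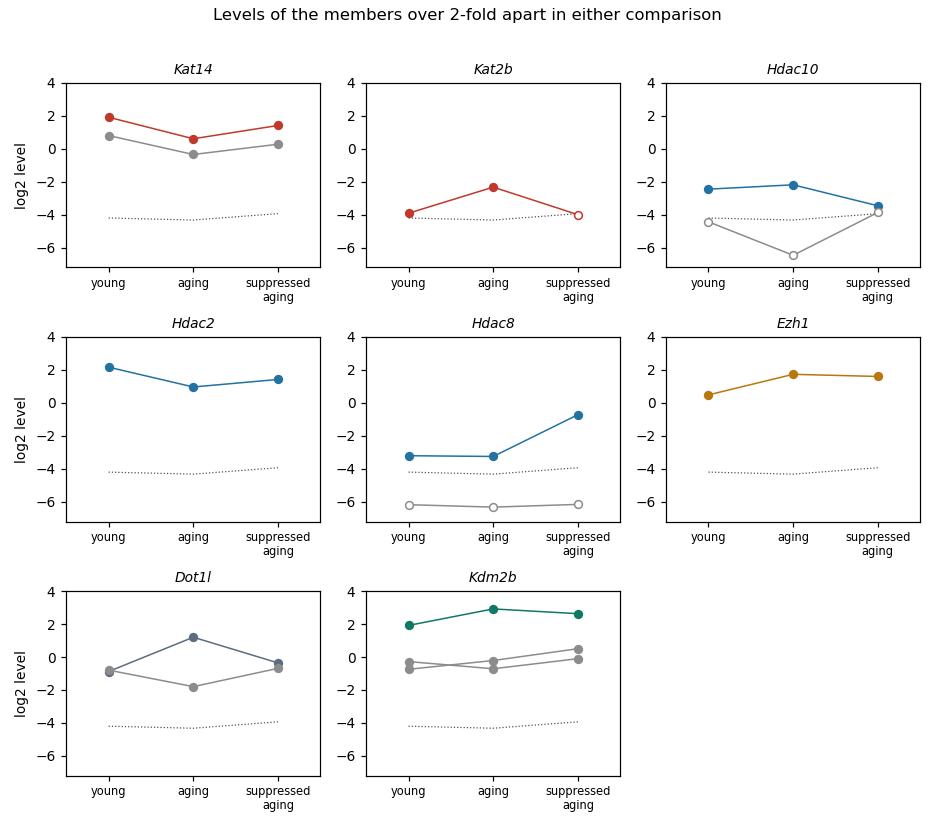
Log2 levels on the 3 arrays are plotted for the 8 members over 2-fold apart in either comparison, each point being 1 probe on 1 array. Coloured points are the probe used, grey points the other probes, open points are not above background, and the dotted line is the level of the dimmest detected probe. The Kat14 probes run in parallel with the lowest point in aging, the Dot1l probes cross, and Kat2b and Hdac10 lie close to the dotted line.

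The members placed in the class of H3K4 methyltransferases were Kmt2b, Kmt2c, Kmt2d and Kmt2e, and all 4 were detected on each array. They share the Kmt2 symbol, and no enzyme activity was measured. Setd1a and Setd1b lie outside the rule for members and were followed with the COMPASS genes. In aging 3 were higher and 1 lower (median 0.37), against 52.8% higher over all genes. After suppression 1 was higher and 3 lower (median -0.42), against 49.6% higher. In 2 of the genes a further probe could be compared. This probe was higher in aging for 0 of 2 (median -0.51) and after suppression for 2 of 2 (median 0.83). The brightest probes of the same 2 genes had medians of 0.10 and -0.15. Between these probes only Kmt2c changed sign from young to aging, and only Kmt2e after suppression. Kmt2b and Kmt2d had 1 probe each. Over all genes with such a probe, the next one was higher for 48.8% in aging and 53.5% after suppression. Kmt2b, which methylates H3K4 at promoters, had levels of 1.20 in young, 1.73 in aging and 1.20 in suppressed aging. Kmt2c and Kmt2d methylate H3K4 at enhancers. Kmt2c had levels of 1.13, 1.73 and 1.74 at its brightest probe, and Kmt2d had -0.25, -0.03 and -0.79 at its single probe. Kmt2d was lowest after suppression, by 0.76 below aging on the log2 scale. A second Kmt2c probe was higher after suppression by 1.11, with levels of 0.07, -0.08 and 1.03. The third Kmt2c probe differed by 0.68 from young to aging and by -0.27 after suppression. Kmt2e, a more distant PHD and SET domain protein of the family, was lower in aging at both probes, by 0.41 and 0.86, with levels of 2.39, 1.98 and 1.67 at the brighter one. After suppression its probes differed in direction, with -0.31 and 0.56.

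All 5 H3K9 methyltransferases were higher in aging at the probe used, by 0.06 to 0.63 with a median of 0.19, against 52.8% of all genes, the smallest of these differences being under the SD of 0.07 between single spots. At a second probe 1 of 2 was higher in aging. After suppression the class was split, 3 higher and 2 lower, around a median of 0.04, against 49.6% of all genes higher. Setdb1, which silences endogenous retroviruses, had the largest difference, with levels of 0.33 in young, 0.96 in aging and 0.63 in suppressed aging. Ehmt1 (GLP) had -0.75, -0.39 and -0.77, and its partner Ehmt2 (G9a) had 3.72, 3.91 and 4.15. Suv39h1 and Suv39h2, the enzymes of pericentric heterochromatin, were nearly level at their brighter probes, with 2.69, 2.75 and 3.03 for Suv39h1 and 9.12, 9.23 and 9.27 for Suv39h2. The dimmer probe of Suv39h1 was much higher in aging, with levels of -1.92, -0.17 and -1.02, a difference of 1.74. The dimmer probe of Suv39h2 gave -0.82, -0.85 and -0.75, so its direction from young to aging was opposite to that of the brighter one by a small margin.

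Within Polycomb repressive complex 2, which methylates H3K27, the catalytic subunits Ezh1 and Ezh2 differed in direction. Ezh1 had levels of 0.49 in young, 1.73 in aging and 1.60 in suppressed aging, a difference of 1.25 from young to aging and of -0.13 after suppression. Both aging arrays were thus higher than the young array. With the normexp correction the difference from young was 0.99, at the border of 2-fold. Ezh2, the catalytic subunit of dividing cells, had levels of 4.58, 4.30 and 4.27 at its brightest probe, and 4 of its 5 probes were lower in aging, by 0.22 to 0.54 on the log2 scale, the other being higher by 0.29. The scaffold Suz12 had levels of 3.06, 2.87 and 3.43 at the brighter probe and 2.32, 2.46 and 2.64 at the other, both highest after suppression. Eed, which binds the H3K27 mark, had levels of 4.18, 4.09 and 4.41. Over the 4 core genes the median was -0.14 from young to aging (1 higher, 3 lower) and 0.15 after suppression (2 higher, 2 lower). Of all genes 52.8% were higher from young to aging and 49.6% after suppression.

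The probes of Dot1l, the H3K79 methyltransferase, contradicted each other. The probe used had levels of -0.88 in young, 1.20 in aging and -0.36 in suppressed aging, whereas the other had -0.80, -1.80 and -0.69. The former was highest in aging, 2.08 above young, and the latter was lowest in aging, 1.003 below young. After suppression they differed from aging by -1.56 and 1.11. Dot1l was the only member with its 2 brightest probes over 2-fold apart in opposite directions, in either comparison. This was 1 of 28 members from young to aging and 1 of 29 after suppression. Of all genes with 2 comparable probes, 1.36% and 1.49% had such probes. No direction can be given for Dot1l.

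The H4K20 methyltransferases act in the cell cycle and in heterochromatin. Kmt5a, which places the first methyl group, had levels of 5.18, 5.16 and 5.21 at its brightest probe, and its 5 probes ranged from -0.90 to 0.48 from young to aging. Kmt5b, which adds the following methyl groups, had levels of 2.45, 1.77 and 2.53 at its brightest probe, lowest in aging by 0.68. Of its 6 comparable probes, 4 were lower in aging, including one with levels of 0.99, -0.10 and 0.49 and a difference of -1.09. Kmt5c had levels of 1.90, 1.74 and 1.58 at its brighter probe and was lower in aging at both, by 0.16 and 0.08 on the log2 scale.

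The demethylases were the class with the most members, and 17 of 18 were detected on each array. In aging 13 were higher and 4 lower than in young (median 0.36), against 52.8% higher over all genes. After suppression 7 were higher and 10 lower (median -0.29), against 49.6% higher. For the demethylases with a second comparable probe, this next probe was higher in aging for 5 of 7, with a median of 0.34. After suppression the next probe was higher for 6 of 8, with a median of 0.40 (Kdm1b and Kdm5d at their bounds), where the brightest probes of the same 8 genes had a median of -0.08. For these 8 genes the direction after suppression thus depended on the probe. Over all genes with such a probe, the next one was higher for 48.8% in aging and 53.5% after suppression.

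Kdm2b, an H3K36 demethylase that brings a Polycomb complex to CpG islands, had the largest difference of the class from young to aging. Its brightest probe had levels of 1.92, 2.92 and 2.63, and the difference was at the border of 2-fold, and under it with the normexp correction (0.95). Its other probes differed by 0.53 and -0.44, and the mean over its probes was 0.37. Its relative Kdm2a had levels of 1.32, 1.15 and 1.69 at the brightest probe, with differences from young to aging of -0.17, 0.05 and 0.34 over its 3 probes. The flavin-dependent enzymes of H3K4, Kdm1a and Kdm1b, were close to level, with 2.73, 2.82 and 2.66 for Kdm1a and 0.47, 0.53 and 0.18 for Kdm1b. A second Kdm1b probe was detected after suppression only, at a level of -2.35, at least 1.97 above aging.

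Several demethylases of H3K9 were higher in aging without passing 2-fold at the probe used. Kdm4b had levels of -0.18 in young, 0.74 in aging and 0.06 in suppressed aging. Kdm3a had -0.34, 0.22 and -0.09. Kdm4c was highest in aging at both of its probes, with levels of -2.26, -1.72 and -2.06 at one and -2.40, -1.38 and -2.43 at the other. The latter was 1.02 higher than young in aging and 1.05 lower than aging after suppression. Kdm7a, which acts on H3K9 and H3K27, was higher in aging at both probes, by 0.42 and 0.34, and Kdm4a and Kdm3b were lower by 0.26 and 0.28. Kdm3b had levels of -1.28, -1.57 and -2.02, the largest decrease of the class from young to aging.

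Kdm8 had levels of -3.79, -2.88 and -3.53, not far above the detection limit. It was 0.91 higher in aging, and 0.05 higher with the normexp correction. The H3K27 demethylase Kdm6b had levels of -2.55 in young, -1.91 in aging and -2.89 in suppressed aging, and its difference after suppression, -0.97, was the lowest of the class. Its X-linked relative Kdm6a was level at -2.28, -2.38 and -2.34. Of the H3K4 demethylases, Kdm5a had levels of 0.11, 0.11 and 0.78, and both of its probes were higher after suppression, by 0.66 and 1.19. Kdm5b, with 1.90, 2.21 and 2.28, was higher on both aging arrays than in young.

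Hdac6, Hdac8, Suv39h1, Kdm5c and Kdm6a lie on the X chromosome and Kdm5d on the Y chromosome, and the labels give no sex for the embryos of a pool. Kdm5d was detected on all 3 arrays at a probe with levels of -2.60, -2.24 and -2.11. A second probe had -2.49 in young and -1.84 in aging and was not detected after suppression, at least 2.10 lower, and the other probe was detected on none. The Y-linked genes Ddx3y, Eif2s3y and Uty were detected on all 3 arrays, and Zfy1 and Zfy2 on the aging array only. Xist, the RNA of the inactive X chromosome, had levels of 5.20, 4.64 and 4.41. The X-linked Kdm5c, the counterpart of Kdm5d, had levels of 1.52, 1.93 and 2.28 at its brighter probe and 0.79, -0.08 and 0.39 at the other. The part of the sex makeup of the pools in the values of these members was not tested.

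**Figure D3:**
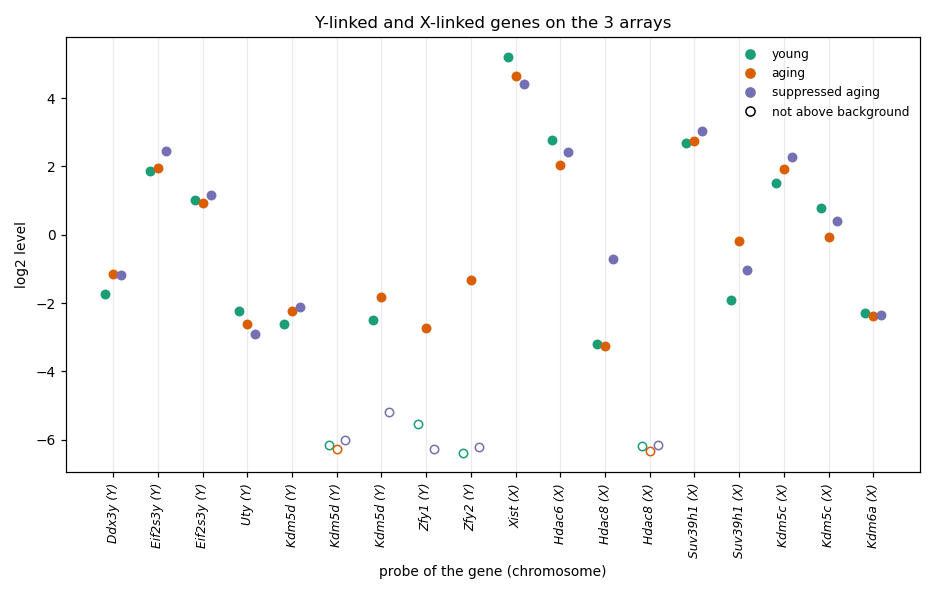
Log2 levels in the 3 pools are plotted for each probe of Y-linked genes, of Xist and of the X-linked members, with open symbols where the probe was not above background. Eif2s3y and 1 Kdm5d probe are present on every array, Zfy1 and Zfy2 are above background in aging only, and Hdac8 stands apart in suppressed aging at -0.72.

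Where a member had more than 1 comparable probe, the probes often disagreed. From young to aging the 2 brightest probes had the same sign for 15 of 28 members (53.6%), against 56.5% of all genes with 2 such probes. Both were over 2-fold in 1 direction for 1 member, Kat14, against 3.81% of all genes. From aging to suppressed aging they had the same sign for 12 of 29 members (41.4%), against 54.5%, and both were over 2-fold in 1 direction for none, against 2.93%. The median gap between the differences of the 2 probes was 0.46 log2 from young to aging and 0.72 after suppression. Over all genes with 2 such probes the gap was 0.59 and 0.57. All of these were much wider than the SD of 0.07 between single spots. Counting all comparable probes of a member, from young to aging 5 members were higher at each probe, 6 lower at each and 17 mixed. The former were Kat6a, Suv39h1, Kdm4c, Kdm5d and Kdm7a, and the latter Crebbp, Kat14, Kat2a, Hdac9, Kmt2e and Kmt5c. After suppression 7 members were higher at each comparable probe, namely Crebbp, Kat14, Hdac4, Suv39h2, Suz12, Kdm5a and Kdm5c, 2 were lower at each, Hdac9 and Kdm4c, and 20 were mixed. For these counts over all comparable probes no share over all genes was computed. The named members are therefore not shown to agree more often than other genes would.

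**Figure D4:**
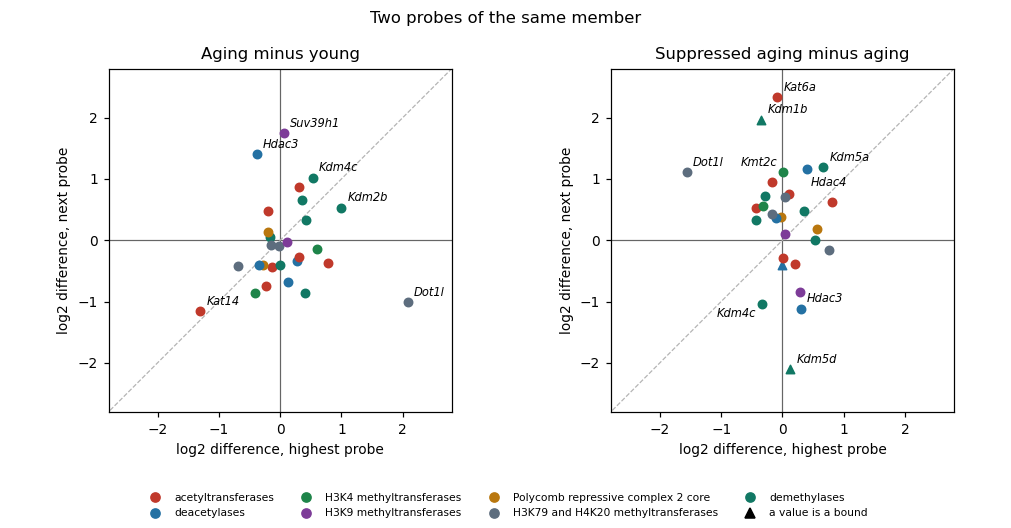
For each member with more than 1 comparable probe, the log2 difference at its brightest probe (horizontal axis) is plotted against that at the next brightest (vertical axis), for aging minus young (left) and suppressed aging minus aging (right). The dashed line marks equal values and triangles mark bounds. Kat14 lies close to the line at the lower left of the left panel, Dot1l lies far from it in both, and Kat6a and Kdm1b lie high in the right panel near 0 on the horizontal axis.

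The size of the differences went with the brightness of the probe. Member probes were split at the median of their mean level, 0.34. From young to aging, 6 of 54 probes at or above it (11.1%) and 7 of 44 comparable probes below it (15.9%) differed over 2-fold, against 8.8% and 28.5% of all named probes in the same ranges. From aging to suppressed aging the counts were 2 of 54 (3.70%) and 11 of 42 (26.2%), against 7.2% and 26.9%. After suppression, then, all but 2 of the member probes over 2-fold were dim ones, Hdac8 and Kat2b among them.

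The 250 bases before the transcription start are shown for those members over 2-fold apart that have a single window in the RefSeq promoter table, of build GRCm38.p6. Capitals mark, on either strand, a GC box with the letters GGGCGG, the box spelled CCAAT, or a TATA box with the letters TATAAA, and the sequences run 5′ to 3′ on the strand of the gene. Kat14 (chr2:144368782-144369031, plus strand) and Hdac2 (chr10:36974294-36974543, plus strand) were lower in aging, and each window held 27 CpG dinucleotides and 1 GC box. Ezh1 (chr11:101226464-101226713, minus strand), higher in aging, held 14 CpG dinucleotides and none of these boxes. Dot1l (chr10:80754953-80755202, plus strand), with discordant probes, held 44 CpG dinucleotides and 2 GC boxes. Hdac8 (chrX:102505159-102505408, minus strand), higher after suppression, held 6 CpG dinucleotides, 1 TATA box and 2 CCAAT boxes that overlap on opposite strands.
Kat14: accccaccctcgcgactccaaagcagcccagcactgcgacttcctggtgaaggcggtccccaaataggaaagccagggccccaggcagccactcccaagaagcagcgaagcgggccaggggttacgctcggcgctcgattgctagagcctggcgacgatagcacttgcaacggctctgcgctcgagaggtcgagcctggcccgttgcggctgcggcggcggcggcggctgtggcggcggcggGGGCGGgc
Hdac2: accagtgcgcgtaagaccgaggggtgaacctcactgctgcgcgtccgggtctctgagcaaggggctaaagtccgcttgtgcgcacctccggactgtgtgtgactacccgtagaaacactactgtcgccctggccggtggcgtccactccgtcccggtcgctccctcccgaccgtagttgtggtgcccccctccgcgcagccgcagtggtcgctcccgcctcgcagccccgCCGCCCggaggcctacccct
Ezh1: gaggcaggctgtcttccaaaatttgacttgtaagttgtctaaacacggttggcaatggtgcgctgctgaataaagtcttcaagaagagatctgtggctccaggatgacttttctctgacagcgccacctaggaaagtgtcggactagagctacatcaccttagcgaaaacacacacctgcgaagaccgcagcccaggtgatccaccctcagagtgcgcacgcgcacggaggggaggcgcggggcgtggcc
Dot1l: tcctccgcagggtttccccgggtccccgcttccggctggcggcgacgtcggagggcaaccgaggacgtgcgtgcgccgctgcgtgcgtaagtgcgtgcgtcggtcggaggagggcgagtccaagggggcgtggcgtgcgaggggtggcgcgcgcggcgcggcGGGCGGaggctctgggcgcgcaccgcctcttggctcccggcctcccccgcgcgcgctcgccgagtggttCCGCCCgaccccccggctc
Hdac8: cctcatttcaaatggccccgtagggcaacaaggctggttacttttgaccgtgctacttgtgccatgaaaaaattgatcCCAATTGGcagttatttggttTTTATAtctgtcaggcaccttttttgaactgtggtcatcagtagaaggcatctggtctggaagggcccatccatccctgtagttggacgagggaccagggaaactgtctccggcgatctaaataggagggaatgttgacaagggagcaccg
These matches describe letters and do not show that a factor binds.

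Over the 64 windows of 45 members in that table, a GC box was found in 62.5%, against 45.0% of all 19636 windows. A CCAAT box was found in 40.6% against 35.1%, a TATA box in 4.69% against 11.1%, and the E-box CACGTG in 7.81% against 6.98%. The median number of CpG dinucleotides was 17 in the windows of members and 11 in all windows. The motifs were searched separately, so a CCAAT box that overlaps a GC box was counted for both, and several windows of 1 gene can overlap.

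The proteins that work with these enzymes were followed in 6 lists of 92 genes in all. From young to aging 91 could be compared, with 55 above and 36 below young and a median of 0.17. Over all genes 52.8% were higher and the median was 0.04, which is the background for each list below as well. Of the 91, 7 (7.69%) differed over 2-fold, 3 higher and 4 lower, against 18.8% of all genes. After suppression 90 could be compared, 44 above and 46 below aging at a median of -0.01, where 49.6% of all genes were higher. Of the 90, 10 (11.1%) differed over 2-fold, 6 higher and 4 lower, against 17.2% of all genes. In the COMPASS complexes, which hold the H3K4 methyltransferases, 7 of 10 genes were higher in aging. The core subunit Rbbp5 was the exception by most, with levels of 1.76, 0.66 and 2.34 at its brighter probe and 0.84, 0.29 and 1.02 at the other. Both Rbbp5 probes were lowest in aging, by 1.10 and 0.55, and highest after suppression, by 1.68 and 0.73. The highest of this list from young to aging was Hcfc1, by 0.97, and the lowest after suppression was Wdr5, at -0.74.

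Of the accessory subunits of Polycomb repressive complex 2, 3 of 8 were higher in aging, against 52.8% of all genes, with Rbbp4 highest at 0.50 and Phf19 lowest at -1.16. After suppression Rbbp7 was highest at 0.94 and Rbbp4 lowest at -0.38. Of 18 genes of deacetylase complexes, 12 were higher in aging, with the NuRD remodeler Chd3 highest at 1.31 and Rcor3 lowest at -0.71. After suppression the scaffold Sin3a was highest at 2.10, with levels of -0.35, -0.70 and 1.40. Of 26 genes of acetyltransferase complexes, 14 were higher in aging, from Epc2 at 1.19 to Ing2, which was detected in young only, at least 1.44 lower. The other Epc2 probe went the opposite way, at -0.61. After suppression Trrap, the scaffold of SAGA and NuA4, was highest at 2.20, and Ing4 lowest at -1.32. The other Trrap probes differed by -0.16, 0.23 and -0.12, so the high value came from 1 of 4 probes. The other Ing4 probe differed by -0.03 after suppression.

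Of the other lysine and arginine methyltransferases, 14 of 21 were higher in aging, against 52.8% of all genes. After suppression 13 of 21 were lower, where 49.6% of all genes were higher. Prmt1 was highest in aging at 0.97 and Smyd1 lowest at -1.15, and after suppression Smyd4 was highest at 1.17 and Setd7 lowest at -1.27. Of the other demethylases, 5 of 8 were higher in aging, from Riox1 at 0.99 to Jmjd1c at -0.67. The other comparable Jmjd1c probes gave 1.18, 0.15 and -0.02. After suppression Jmjd6, a lysyl hydroxylase of the JmjC family, was the single partner gene over 5-fold, at 2.37, with levels of 1.42, 1.75 and 4.12. Its other probe had -0.29, -0.23 and -0.06, a difference of 0.17. Riox1 was the lowest of this list after suppression, at -0.92.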

How the data were processed

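Each of 3 one-colour Agilent mouse arrays (Cy3, 1 slide) held RNA of 1 pool of blastocysts. The authors deposited linear spot intensity, with the background subtracted and spatial trends removed within the array by Agilent Feature Extraction 12.0.3.1 per the labels, and without scaling between arrays. The authors' value table holds the same values times 1 factor for each array. RNA was amplified by global PCR from 1 primer per the study's methods, but by a low-input cRNA labeling kit per the labels, and the files do not settle this. Either route starts from little RNA and can carry an amplification bias, whose part was not tested.

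Control spots and spots marked as outliers by the scanner software were left out, which left 56591 of 56605 probes, and none of the member spots was marked. Log2 intensities of replicate spots were averaged and scaled by subtracting the 75th percentile of the array. Accessions were matched to the RefSeq gene table of GRCm38.p6. For each comparison a gene was read by the comparable probe with the highest mean signal. A probe not well above background on 1 array was set to the higher of its own value and the lowest level of a detected probe of that array, which gives a bound, and a probe below background on both sides was not compared. Differences over 2-fold and over 5-fold were counted, with no test and no P-value. The number of arrays limits the precision.

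The members and the lists of partner and marker genes were chosen with earlier results of these data known. Levels on all arrays are given for each member over 2-fold apart, for members with several probes over 2-fold apart, for the highest and lowest difference of each class, and for other members beyond this rule. Promoters were chosen after values were seen. Alternatives were normexp background correction (offset 50), centring on the mean of 15 housekeeping genes or on the median of detected probes, quantile normalization, the authors' table, keeping outlier spots, the mean over probes, the next probe, and other filters on dim probes. The counting was tested on simulated data. The software was R 4.3.3 (limma 3.58.1) and Python 3.11.15 (pandas 2.3.3, NumPy 2.4.6, Matplotlib 3.10.9). Probe positions within the transcripts were not analysed here. A few genes of the marker and partner lists are not reported here.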

Additional observations from a re-analysis of the deposited data

How the results depend on the processing

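No paired analysis was possible because each group held 1 array. The counts over 2-fold and 5-fold and the medians were recomputed under 10 alternatives. With normexp, members over 2-fold numbered 3 from young to aging and 2 after suppression, none was over 5-fold after suppression (0 in place of 1), and the median from young to aging was 0.085. At the next brightest probe of members with several, the median was -0.21 from young to aging and 0.43 after suppression, and 9 of 29 members were over 2-fold after suppression. In the authors' table the median after suppression was -0.14. The other alternatives left the counts within 1.5 times. Under them the median from young to aging was between 0.14 and 0.20, and that after suppression between -0.098 with quantile normalization (21 higher, 33 lower) and 0.012 with the mean over probes (27 higher, 27 lower), so it had no settled sign. Dot1l turned direction at its second probe, to -1.003 from young to aging and 1.11 after suppression. Kat14 and Hdac2 in aging and Hdac8 after suppression stayed over 2-fold under every alternative that gave a value. The causes were not tested. Changes of scaling moved the median of all genes by at most 0.09 in size. Signal over background limits Kat2b, Hdac8, Hdac10 and Kdm8.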
